A study of Mus musculus with 8 samples.

Results

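The enzymes that attach palmitate to proteins and take it off again were examined as a group of 33 genes in mouse hypothalamus. The genes were chosen by name for their function, as 22 DHHC palmitoyltransferases (the writers), 3 cofactors of these enzymes and 8 depalmitoylating thioesterases (the erasers), and all 33 were found by Ensembl identifier among the 55890 genes of the count table. The list of writers leaves out *Zdhhc11* and *Zdhhc19*, DHHC genes that had at most 3 counts in any pool and were placed with other lipidation enzymes. In S-palmitoylation, a DHHC enzyme transfers the fatty acid palmitate from palmitoyl-CoA to a cysteine of its target, which brings the target to a membrane. Unlike most lipid anchors this one is reversible, and thioesterases in the cytosol, at membranes and in the lysosome remove it. Neurons use the cycle to place synaptic scaffolds, ion channels, G proteins and Ras. A share of estrogen receptor alpha (ERα) also depends on it, since palmitate at a cysteine of the ligand-binding domain holds the receptor at the plasma membrane, and the enzymes encoded by *Zdhhc7* and *Zdhhc21* are reported to attach it there.

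Hypothalamic RNA of female mice aged 16 weeks was sequenced in 8 pools of 2 animals each, 4 pools from POMC-C451Af/f mice and 4 from controls. The POMC-C451Af/f mice carried floxed alleles of *Esr1*, the gene of ERα, which give the C451A substitution after recombination, together with a Cre transgene driven by *Pomc* regulatory sequence, so the palmitoylated cysteine is lost only in cells that express or once expressed the transgene. The controls lacked Cre. The study's methods give them as homozygous C451A f/f littermates, while the titles and genotype entries of the samples say wildtype. Cells that express *Pomc* are a small share of the hypothalamus, and each pool holds the RNA of all its cells. The total estimated count per pool was between 36095253 and 40498166 for POMC-C451Af/f (median 36608051) and between 37841365 and 48942116 for controls (median 41723908). Of 17 genes that mark hypothalamic neurons and nuclei, 16 were counted well enough to be tested, with *Pmch*, the precursor of melanin-concentrating hormone, the most abundant. The exception was *Kiss1*, which had no counts in 6 of the 8 pools. Marker genes of tissue and cell type differed between the pools. Of the 16 tested hypothalamic markers, 14 had a log2 fold change of POMC-C451Af/f over control below 0, with a median of -0.18, and 2 had an unadjusted p under 0.05 in edgeR, both lower in POMC-C451Af/f, beside 2.39% of all tested genes. These were *Pomc* (log2 fold change -0.59) and *Trh* (-0.23, with the groups apart), each with an adjusted p of 0.878 by edgeR's quasi-likelihood test and named after their values were seen. Control replicate 1 had 98.9 CPM of *Pomc* against 49.7 to 50.8 CPM in its 3 companions, and without that pool the log2 fold changes were -0.28 for *Pomc* and -0.21 for *Trh*. In that fit the unadjusted p by edgeR's quasi-likelihood test was 0.097 for *Pomc*, no longer under 0.05, and 0.015 for *Trh*. The median of the 16 was then -0.13, with 12 below 0. The summed level per length (TPM, computed from counts and transcript length) of the list was 4796, 5638, 3227 and 4158 in POMC-C451Af/f replicates 1 to 4 and 6519, 4631, 5573 and 4476 in control replicates 1 to 4. POMC-C451Af/f replicate 3 was the lowest pool and control replicate 1 the highest. Control replicate 1 also stood apart in 9 pituitary markers, of which 6 were tested and *Prl* was the most abundant, with a sum of 4215.5 TPM against 70.9 to 671.1 TPM in the other 7 pools. Of 7 astrocyte markers, 3 had an unadjusted p under 0.05 in edgeR (2 higher and 1 lower in POMC-C451Af/f), all with groups apart. *Aldoc* was the most abundant of them and none was at 0 in 4 or more pools. Their sums were 2021 and 2028 TPM as means of POMC-C451Af/f and control pools. Over all tested genes the shares were 5.10% with an unadjusted p under 0.05 and 2.78% with groups apart. The part of these lists in the results was not tested. The oligodendrocyte and midbrain lists were used as covariates in further fits. Both were higher on average in POMC-C451Af/f, so those fits cannot separate tissue make-up from genotype.

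The codon that the mutation replaces is shown for orientation, because it links the genotype to the enzymes described here. In the reference it is the cysteine codon numbered in the name C451A, of 599 codons in the coding sequence of *Esr1* (ENSMUSG00000019768.17), in exon 8 of transcript ENSMUST00000105590.7, at chr10:4969262-4969264 on the plus strand of GRCm38. The stretch from codon 443 to 459 is printed 5′ to 3′, with the codon of the palmitoylated cysteine in capitals.
Esr1: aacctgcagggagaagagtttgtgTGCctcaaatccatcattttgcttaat
The normalised count of *Esr1*, in CPM on the TMM-scaled library size, was 11.6, 12.2, 9.997 and 10.8 in POMC-C451Af/f replicates 1 to 4 and 12.3, 12.8, 11.6 and 16.0 in control replicates 1 to 4. Control replicate 4 was the highest pool and the groups overlapped. The log2 fold change of POMC-C451Af/f over control was -0.23 (SE, standard error, 0.104; 95% interval -0.46 to -0.005). By edgeR's quasi-likelihood test p was 0.0462 unadjusted and 0.878 after Benjamini-Hochberg adjustment. Without control replicate 4 the log2 fold change was -0.13. Counts per gene pool the transcripts of mutated and intact alleles.

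None of the palmitoylation enzymes was called between the genotypes. A call required an adjusted p of at most 0.05 (Benjamini-Hochberg over 18637 tested genes) with an absolute log2 fold change over 0.5. Of the 33 members, 32 passed the filter on low counts, and 0 of these 32 were called by edgeR's quasi-likelihood test or by DESeq2, whereas edgeR called 4 of all tested genes (0.0215%). At an unadjusted p under 0.05 there were 2 members in edgeR and 2 in DESeq2, *Zdhhc9* and *Zdhhc1*, which is 6.25% of the tested members. Over all genes this held for 950 of 18637 in edgeR (5.10%) and for 906 of 32164 in DESeq2 (2.82%). DESeq2 was fitted without the filter on low counts, so its share is over an unlike set of genes that includes many with few counts. The 2 members went in opposite directions, 1 higher in POMC-C451Af/f beside 2.70% of all tested genes in edgeR and 1 lower beside 2.39%. The genotype groups overlapped in all 32 members, so 0 of 32 had groups apart, beside 2.78% of all tested genes (1.34% higher in POMC-C451Af/f and 1.45% lower).

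The differences were also small. The log2 fold change of the members had a median of 0.0090, beside a median of 0.00085 over all tested genes, and ran from -0.12 for *Zdhhc15* to 0.20 for *Zdhhc9*. It was above 0 for 18 of the 32, beside 50.4% of all tested genes. In the fit of edgeR with all 8 pools, the 95% interval lay between -0.5 and 0.5 for all 32 tested members and between -0.25 and 0.25 for 28 of them. The 4 whose intervals reached further were the writers *Zdhhc9*, *Zdhhc22*, *Zdhhc12* and *Zdhhc15*. Of all 18637 tested genes, 13958 had intervals within the wider bounds and 9757 within the narrower. The median SE was 0.0529 for the members and 0.0745 for all tested genes.

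**Figure D1:**
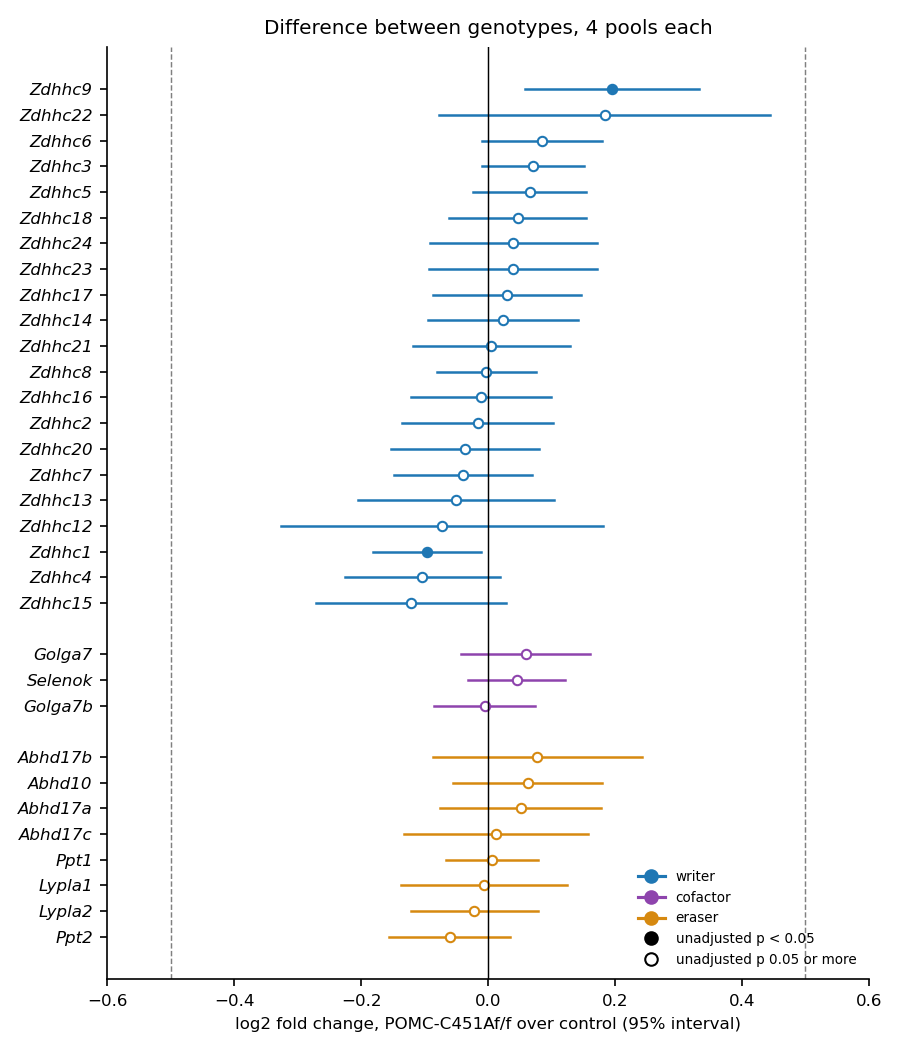
Log2 fold change of POMC-C451Af/f over control (horizontal axis) for each of the 32 tested members, grouped as writers, cofactors and erasers. Points are estimates and bars 95% intervals from edgeR with 4 pools per genotype, filled points (*Zdhhc9* and *Zdhhc1*) have an unadjusted p under 0.05, and every bar stays between the dashed lines at -0.5 and 0.5.

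The writers share a short catalytic motif named DHHC after its residues, whose cysteine carries the palmitate before it is passed to the target. Codons for this motif were found in frame in 21 of the 22 writers, in 10 different spellings. The exception was *Zdhhc13*, an ankyrin-repeat enzyme related to *Zdhhc17*, which has codons for DQHC at the same place. The motif and its neighbouring codons are shown for the enzymes on which the results below turn and for *Zdhhc13*, 5′ to 3′ on the coding strand, with the 4 codons of the motif in capitals.
Zdhhc7: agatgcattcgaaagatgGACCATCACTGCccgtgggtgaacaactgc
Zdhhc21: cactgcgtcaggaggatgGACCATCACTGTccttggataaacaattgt
Zdhhc9: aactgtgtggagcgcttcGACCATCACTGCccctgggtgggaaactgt
Zdhhc1: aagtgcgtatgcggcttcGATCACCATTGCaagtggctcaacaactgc
Zdhhc22: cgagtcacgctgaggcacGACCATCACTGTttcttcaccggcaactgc
Zdhhc13: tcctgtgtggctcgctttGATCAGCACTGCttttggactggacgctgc
*Zdhhc7* and *Zdhhc9* use the same 12 bases for the motif, a spelling found in 6 writers. On GRCm38 these codons lie in coding exons, at chr8:120085402-120085413 (minus strand, exon 5 of 8) for *Zdhhc7*, chr4:82838281-82838292 (minus, exon 5 of 9) for *Zdhhc21*, chrX:48183139-48183150 (minus, exon 5 of 10) for *Zdhhc9* and chr8:105477055-105477066 (minus, exon 7 of 14) for *Zdhhc1*. Those of *Zdhhc22* are at chr12:86988344-86988355 (minus, exon 2 of 3) and those of *Zdhhc13* at chr7:48817206-48817217 (plus, exon 13 of 17).

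The writers reported to act on ERα, *Zdhhc7* (ENSMUSG00000031823.15) and *Zdhhc21* (ENSMUSG00000028403.16), were counted in every pool and had nearly the same level in both genotypes. *Zdhhc7* was at 30.4, 33.9, 28.6 and 31.4 CPM in POMC-C451Af/f replicates 1 to 4 and at 32.0, 31.2, 31.7 and 32.7 CPM in control replicates 1 to 4. The highest and the lowest pool were both POMC-C451Af/f, and the controls lay between them. Its mean was 31.1 ± 2.20 CPM (SD, n = 4 pools) against 31.9 ± 0.648 CPM (SD, n = 4 pools), which is -0.039 on the log2 scale (SE 0.0492, 95% interval -0.15 to 0.07). By edgeR's quasi-likelihood test the adjusted p came to 0.923, and a two-sided exact permutation test over the 70 assignments of pools gave p = 0.486. *Zdhhc21* was at 37.5, 35.5, 39.4 and 42.5 CPM in POMC-C451Af/f replicates 1 to 4 and at 36.2, 39.2, 38.9 and 40.0 CPM in control replicates 1 to 4. Again POMC-C451Af/f pools were at both ends and the groups overlapped. Means were 38.7 ± 2.98 CPM and 38.5 ± 1.65 CPM (SD, n = 4 pools each), and the log2 fold change was 0.0054 (SE 0.0558, 95% interval -0.12 to 0.13). By edgeR's quasi-likelihood test the adjusted p came to 0.993 and the two-sided exact permutation p was 0.971, also when adjusted over these 2 genes, as it was for *Zdhhc7*. The smallest p that this permutation test can give with 4 pools per genotype is 0.0286.

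**Figure D2:**
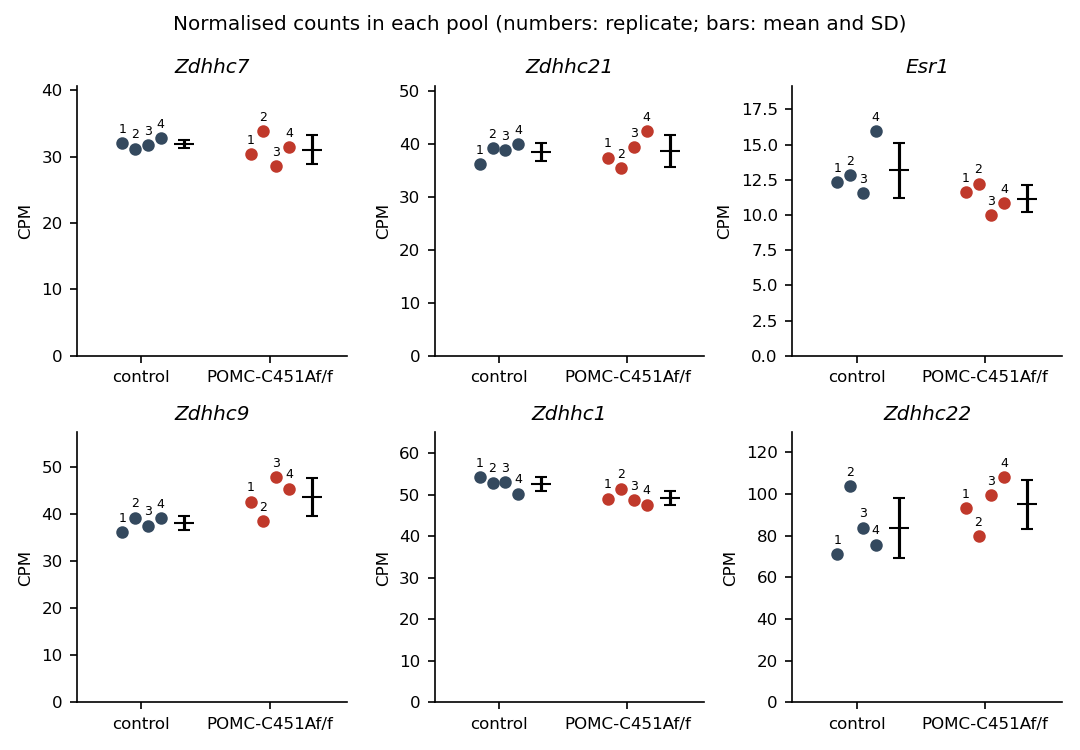
Normalised count (CPM, vertical axes from 0) of 6 genes in each of the 4 control pools and 4 POMC-C451Af/f pools, with replicate numbers beside points and bars for the mean and SD of 4 pools. *Zdhhc7* and *Zdhhc21* overlap almost fully between the genotypes, *Zdhhc9* is highest in POMC-C451Af/f replicates 3 and 4, and *Zdhhc22* spreads most within each group.

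*Zdhhc9* (ENSMUSG00000036985.13), an X-linked gene whose product palmitoylates Ras together with the protein of *Golga7* and which is abundant in oligodendrocytes, had the smallest p of the members. It was at 42.6, 38.5, 47.8 and 45.5 CPM in POMC-C451Af/f replicates 1 to 4 and at 36.2, 39.3, 37.6 and 39.2 CPM in control replicates 1 to 4. Of the POMC-C451Af/f pools, 3 lay above every control pool and replicate 2 lay among the controls. The mean was 43.6 ± 4.02 CPM (SD, n = 4 pools) against 38.1 ± 1.48 CPM (SD, n = 4 pools), which is 0.20 on the log2 scale (SE 0.0622, 95% interval 0.06 to 0.33). By edgeR's quasi-likelihood test p was 0.00988 unadjusted and 0.878 adjusted, so it was not called.

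POMC-C451Af/f replicates 3 and 4, the pools with the highest *Zdhhc9*, also had the most RNA of oligodendrocyte and midbrain marker genes. The summed level of 8 oligodendrocyte markers was 3806, 3806, 4538 and 4261 TPM in POMC-C451Af/f replicates 1 to 4 and 3245, 3782, 3843 and 3867 TPM in control replicates 1 to 4. All 8 had a log2 fold change above 0, with a median of 0.16, and 3 had an unadjusted p under 0.05, all higher, beside 2.70% of all tested genes. *Mbp* was the most abundant and none was at 0 in 4 or more pools. The summed level of 12 midbrain dopaminergic markers was 286.6, 223.7, 432.0 and 317.4 TPM in POMC-C451Af/f replicates 1 to 4 and 196.8, 190.9, 227.9 and 250.1 TPM in control replicates 1 to 4. POMC-C451Af/f replicates 3 and 4 were the highest pools for both lists, and control replicate 1 was the lowest for the oligodendrocyte list. POMC-C451Af/f replicate 1, where *Zdhhc9* was also above every control, had a lower oligodendrocyte sum than control replicates 3 and 4. All 12 midbrain genes had a log2 fold change above 0, and 10 had an unadjusted p under 0.05, all higher, beside the same 2.70%. *Aldh1a1* was the most abundant and none was at 0 in 4 or more pools. With the mean log2 CPM of the oligodendrocyte list as a covariate, the log2 fold change of *Zdhhc9* was 0.081 (SE 0.0503) and with the midbrain list it was 0.060 (SE 0.0604). Both lists were higher on average in POMC-C451Af/f pools, so each covariate overlaps with genotype. The fits with a covariate, here and for other genes, therefore cannot separate tissue make-up from genotype. In bulk tissue, more cells of a type and more RNA per cell cannot be told apart.

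**Figure D3:**
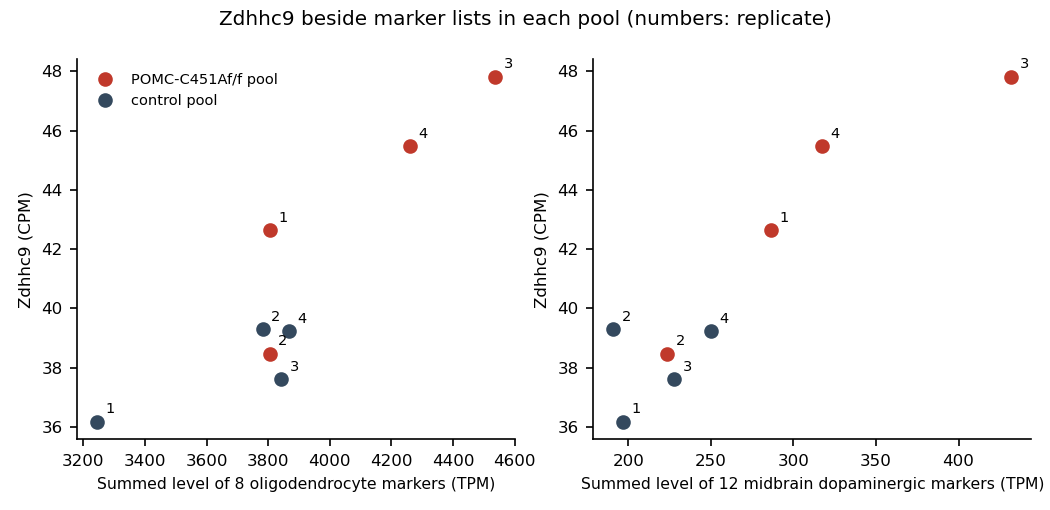
*Zdhhc9* (CPM, vertical axis) beside the summed level (TPM, horizontal axis) of 8 oligodendrocyte markers on the left and 12 midbrain dopaminergic markers on the right, with a point for each pool numbered by replicate. POMC-C451Af/f replicates 3 and 4 are at the upper right in both panels, and POMC-C451Af/f replicate 2 lies among the controls.

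*Zdhhc1* (ENSMUSG00000039199.7), known from innate immune sensing of DNA, was the other member with an unadjusted p under 0.05, and it was lower in POMC-C451Af/f pools. It was at 49.1, 51.5, 48.7 and 47.6 CPM in POMC-C451Af/f replicates 1 to 4 and at 54.2, 52.95, 53.1 and 50.3 CPM in control replicates 1 to 4. Control replicate 4 lay below POMC-C451Af/f replicate 2, so the groups overlapped by that pair only. Its log2 fold change was -0.097 (SE 0.0384; edgeR quasi-likelihood test, unadjusted p 0.0298, adjusted p 0.878). With the oligodendrocyte list as a covariate it was -0.056, and with the midbrain list -0.041.

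Among the other writers, those that sit in the Golgi and at the plasma membrane and act on neuronal targets had log2 fold changes on both sides of 0. *Zdhhc3*, which palmitoylates GABA-A and AMPA receptor subunits in the Golgi, had a log2 fold change of 0.071 (SE 0.0361). *Zdhhc2* and *Zdhhc15*, both known to act on the postsynaptic scaffold PSD-95, had values of -0.016 (SE 0.0536) and -0.12 (SE 0.0676). The other writers of synaptic or channel proteins were *Zdhhc5* and *Zdhhc8*, a closely related pair at the plasma membrane, *Zdhhc12*, which acts on gephyrin, and *Zdhhc14*, which acts on the scaffold PSD-93. They had log2 fold changes of 0.066, -0.0026, -0.072 and 0.024 in that order, all with adjusted p-values of 0.878 or more in edgeR's quasi-likelihood test.

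The ankyrin-repeat writers bind and palmitoylate huntingtin and synaptic vesicle proteins. *Zdhhc17* had a log2 fold change of 0.030 (SE 0.0526). *Zdhhc13* had a log2 fold change of -0.050 (SE 0.0698) and was lower in level than *Zdhhc17*, at 13.1 against 66.0 TPM over all 8 pools.

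Large-conductance potassium channels are palmitoylated by the enzymes of *Zdhhc22* and *Zdhhc23*. *Zdhhc22* (ENSMUSG00000048483.7) was at 93.0, 79.8, 99.4 and 107.9 CPM in POMC-C451Af/f replicates 1 to 4 and at 71.2, 103.8, 83.9 and 75.7 CPM in control replicates 1 to 4. It varied more than any other member that was counted, with a coefficient of variation of 15.3% over the 8 pools, and control replicate 2 was the second highest pool. Its log2 fold change was 0.18 (SE 0.118, edgeR quasi-likelihood test, adjusted p 0.878), and it was 0.11 without control replicate 1 and 0.30 without control replicate 2. As covariates, the oligodendrocyte list gave 0.015 (SE 0.118) and the midbrain list 0.13 (SE 0.169). *Zdhhc23* varied less (5.53%) and had a log2 fold change of 0.039 (SE 0.0599).

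The remaining writers had intervals around 0. *Zdhhc6* works in the endoplasmic reticulum, for instance on calnexin, and is itself palmitoylated by the enzyme of *Zdhhc16*. Their log2 fold changes were 0.085 (SE 0.0431) and -0.011 (SE 0.0498). *Zdhhc4*, an enzyme for the fatty acid transporter CD36, had a log2 fold change of -0.10 (SE 0.0554). *Zdhhc18*, a Golgi enzyme for Ras, *Zdhhc20*, an enzyme for the EGF receptor, and *Zdhhc24*, whose targets are little known, had values of 0.047, -0.036 and 0.040. *Zdhhc25* had 0 counts in all 8 pools, where 3 counts would be 0.0614 to 0.0842 CPM, and was not tested.

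The cofactors each varied less over the pools than the median member (5.49%). *Golga7* stabilises the enzyme of *Zdhhc9*, *Golga7b* keeps that of *Zdhhc5* at the plasma membrane, and *Selenok* is a selenoprotein that works with that of *Zdhhc6*. *Golga7* was at 76.4, 85.0, 86.0 and 85.3 CPM in POMC-C451Af/f replicates 1 to 4 and at 76.3, 81.4, 79.0 and 82.6 CPM in control replicates 1 to 4. POMC-C451Af/f replicate 1 was close to the lowest control pool, and the other 3 were above all controls. Its log2 fold change was 0.059 (SE 0.0457, edgeR quasi-likelihood test, adjusted p 0.883) and over single pools left out it was from 0.037 (without control replicate 1) to 0.096 (without POMC-C451Af/f replicate 1). With the oligodendrocyte list as a covariate it was 0.0014 (SE 0.0475), and with the midbrain list 0.036 (SE 0.0619). *Selenok* and *Golga7b* had log2 fold changes of 0.045 (SE 0.0345) and -0.0055 (SE 0.0360), with coefficients of variation of 2.87% and 2.49%.

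None of the erasers had an unadjusted p under 0.05 in edgeR's quasi-likelihood test. *Ppt1*, the lysosomal thioesterase lost in infantile neuronal ceroid lipofuscinosis, was at 110.2, 112.1, 114.6 and 109.3 CPM in POMC-C451Af/f replicates 1 to 4 and at 110.1, 107.8, 111.6 and 114.8 CPM in control replicates 1 to 4. It was the steadiest of all tested members, with a coefficient of variation of 2.22%, and the genotypes were interleaved. Its difference on the log2 scale was 0.0057 (SE 0.0329, 95% interval -0.07 to 0.08). *Ppt2*, a lysosomal enzyme of different substrate range, had a log2 fold change of -0.060 (SE 0.0431).

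*Lypla1* and *Lypla2* encode the cytosolic acyl-protein thioesterases, which act on Ras and G proteins. Their log2 fold changes were -0.0063 (SE 0.0592) and -0.021 (SE 0.0452). *Abhd17a*, *Abhd17b* and *Abhd17c* encode membrane-bound hydrolases that remove palmitate from PSD-95 and N-Ras, and had log2 fold changes of 0.051, 0.077 and 0.012. *Abhd17b* was the most variable eraser (8.77%), with POMC-C451Af/f replicates 3 and 4 highest at 29.5 and 30.7 CPM and every other pool at or below 27.2 CPM. Its log2 fold change was 0.019 without POMC-C451Af/f replicate 4 and 0.13 without POMC-C451Af/f replicate 1, and it was -0.066 with the oligodendrocyte list as a covariate. *Abhd17c* lies on chromosome 7 at 84109356 to 84151893 of GRCm38 and was at 16.6 ± 1.23 CPM in POMC-C451Af/f and 16.5 ± 1.02 CPM in controls (SD, n = 4 pools each). *Abhd10*, a mitochondrial depalmitoylase, had a log2 fold change of 0.062 (SE 0.0531).

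Levels per length differed far more between the members than between the genotypes. The median member was at 32.5 TPM, beside 13.5 TPM for the median tested gene, and 27 of the 32 tested members lay above that median. With the longest protein-coding transcript, *Ppt1* (119 TPM), *Selenok* (115 TPM), *Abhd17a* (114 TPM), *Golga7* (107 TPM) and *Lypla2* (104 TPM) came first, all of them erasers or cofactors. Their ranges over the 8 pools overlapped from each to the next, while *Lypla2* at its lowest pool (99.6 TPM) lay above *Zdhhc17* at its highest (73.2 TPM). With these lengths the writers with the highest level were *Zdhhc17* (66.0 TPM), *Zdhhc22* (65.7 TPM) and *Zdhhc1* (63.1 TPM), whose ranges overlapped, and together they made up 29.8% of the summed level of the writers. With the same lengths *Zdhhc15* (6.21 TPM), *Zdhhc23* (7.31 TPM) and *Zdhhc12* (8.90 TPM) were the lowest of those counted. In the whole order, 27 of 31 neighbouring pairs overlapped over the pools.

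The place of some members in that order rests on the transcript taken for its length. With the longest transcript *Zdhhc21* was at 11.2 TPM and *Zdhhc7* at 26.1 TPM, whereas with the median length of the protein-coding transcripts they were at 70.1 and 16.7 TPM, so which of these enzymes has the higher level per length was not settled. *Zdhhc16* moved from 27.7 to 70.1 TPM in the same way, and *Golga7* was at 40.3 TPM with the length of all its exons. *Lypla2* and *Zdhhc17* changed places with the median length, at 67.2 and 72.5 TPM. *Zdhhc23* was at 19.7 TPM with the median length, above *Zdhhc13* at 9.89 TPM. With the length of all exons *Zdhhc22* (81.3 TPM) and *Zdhhc8* (62.0 TPM) were above *Zdhhc17* (55.6 TPM). Of the 10 highest members, 7 were the same with all 3 lengths.

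**Figure D4:**
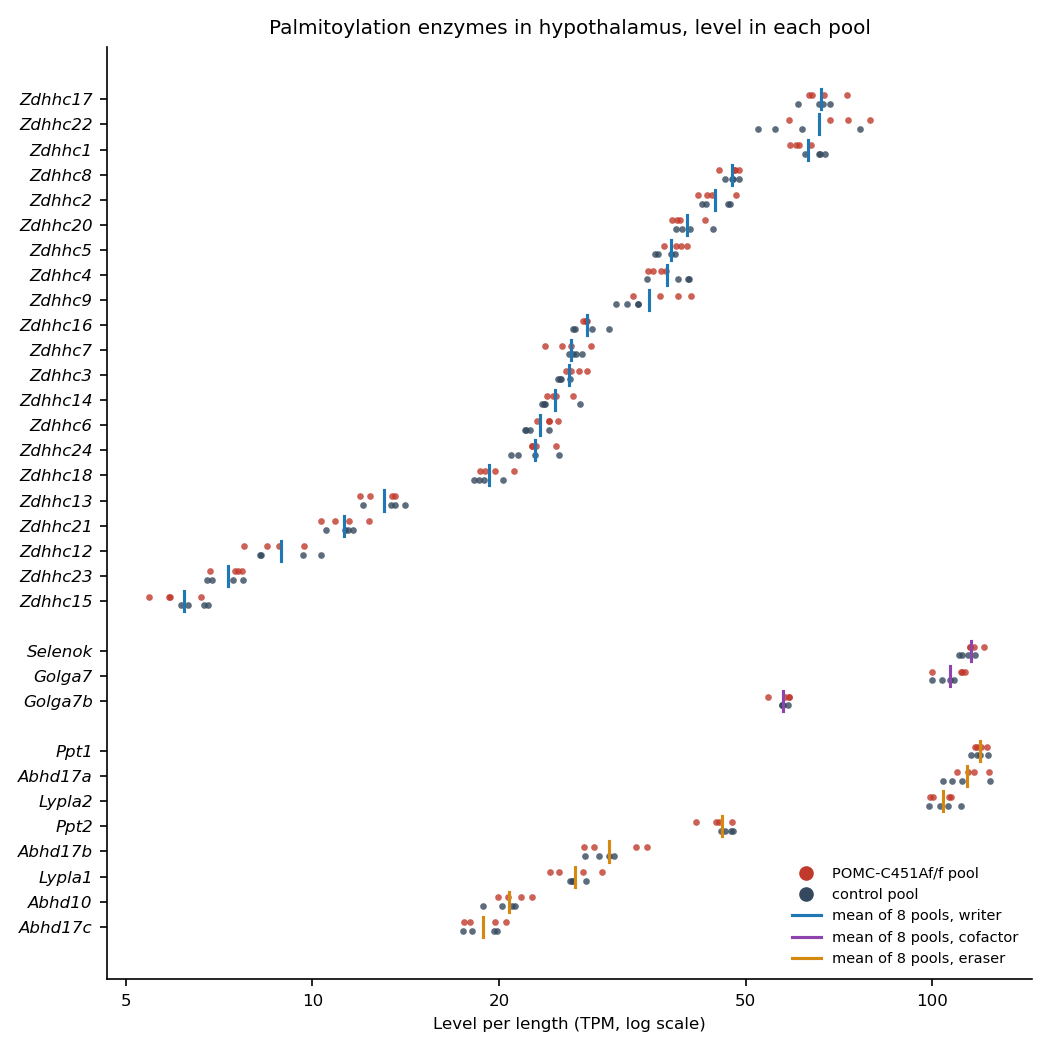
Level per length (TPM, logarithmic axis) of the 32 tested members, ordered within writers, cofactors and erasers by their mean. Vertical ticks are mean TPM of 8 pools. Points are pools coloured by genotype, drawn as the CPM of the pool scaled by a single factor per gene to the mean TPM. The points of the genotypes overlap for each member, and *Ppt1*, *Selenok*, *Abhd17a*, *Golga7* and *Lypla2* have the highest means.

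Summed over their members, writers, cofactors and erasers had similar totals in the genotypes. The writers summed to 649.9, 649.2, 654.4 and 681.3 TPM in POMC-C451Af/f replicates 1 to 4 and to 628.2, 666.9, 653.4 and 646.7 TPM in control replicates 1 to 4. POMC-C451Af/f replicate 4 was the highest and control replicate 1 the lowest pool, with the rest mixed. The erasers summed to 480.5 ± 3.26 TPM in POMC-C451Af/f and 476.9 ± 9.08 TPM in controls, and the cofactors to 283.3 ± 10.2 TPM and 275.5 ± 5.15 TPM (SD, n = 4 pools each). The ratio of writers to erasers was 1.37 ± 0.0354 in POMC-C451Af/f and 1.36 ± 0.0163 in controls (SD, n = 4 pools each). These differences were smaller than or close to the spread between pools and were not tested.

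Some pools held more of the extreme values than others. POMC-C451Af/f replicate 4 held the highest value of 9 of the 32 members and control replicate 2 that of 7, while control replicate 1 held the lowest value of 7 and POMC-C451Af/f replicate 1 the highest of 0. The median deviation of the members from their own mean, on the log2 scale, was 0.038 in POMC-C451Af/f replicate 4 and -0.028 in control replicate 1. In 10 of the 32 members (31.2%) the 2 highest POMC-C451Af/f values were those of replicates 3 and 4, beside 22.4% of all tested genes. These were the writers *Zdhhc3*, *Zdhhc5*, *Zdhhc9*, *Zdhhc17*, *Zdhhc21* and *Zdhhc22*, the cofactor *Golga7* and the erasers *Lypla1*, *Abhd17b* and *Abhd10*. With the oligodendrocyte list as a covariate 0 of the 32 members had an unadjusted p under 0.05, beside 3.46% of all tested genes, and with the midbrain list 0 of 32, beside 2.95%.

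**Figure D5:**
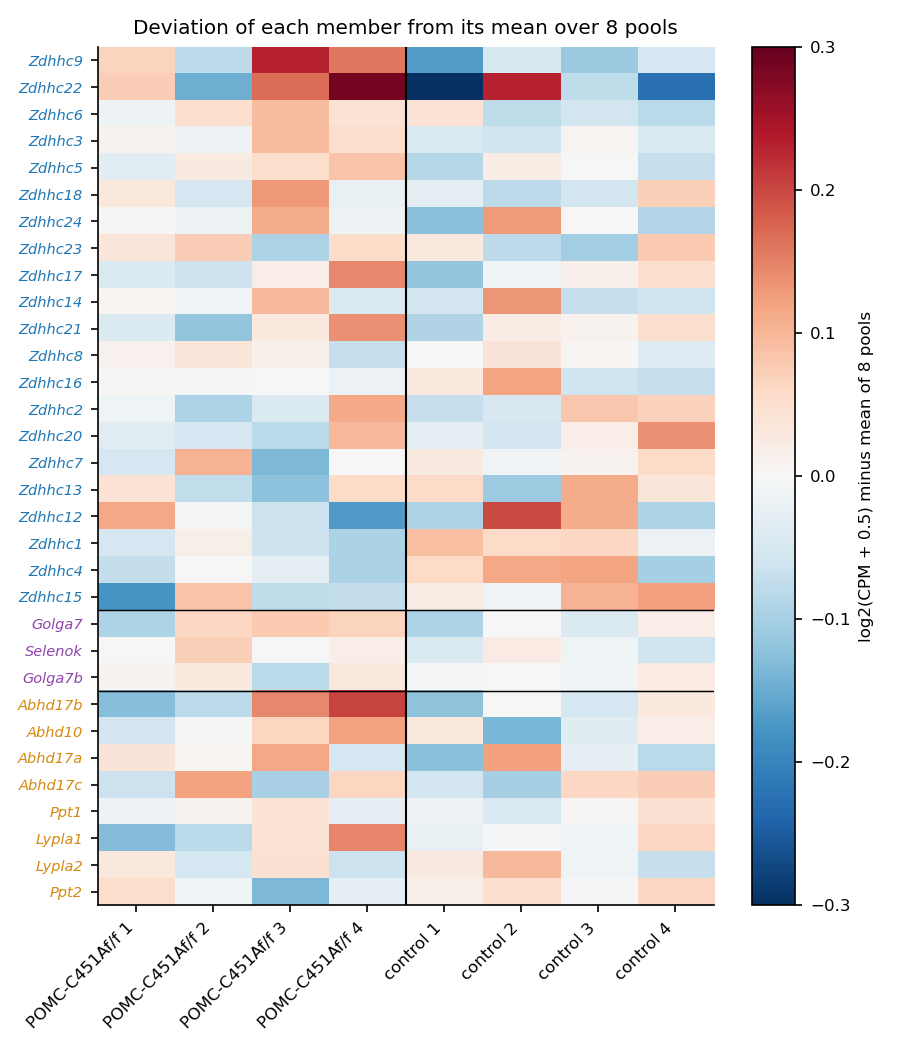
Deviation of each of the 32 tested members from its own mean over the 8 pools, on the scale of log2(CPM + 0.5), with a column for each pool and genotypes split by the black line and red above, blue below the mean. *Zdhhc9*, *Zdhhc22* and *Abhd17b* are red in POMC-C451Af/f replicates 3 and 4, and control replicate 1 is blue for many members.

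In edgeR 0 genes of the other pathway lists were called. Of the 8 other protein lipidation enzymes, *Zdhhc11* and *Zdhhc19* were too low to test, and among the 6 tested *Porcn*, the palmitoleoyl transferase for Wnt proteins, had an unadjusted p under 0.05, beside 5.10% of all tested genes (log2 fold change 0.13, SE 0.0440, edgeR quasi-likelihood test, adjusted p 0.878). The N-myristoyltransferases *Nmt1* (77.5 TPM) and *Nmt2* (46.4 TPM) were with *Porcn* (48.1 TPM) the most abundant of them. Among 13 genes that make or use palmitoyl-CoA, 2 had an unadjusted p under 0.05, both higher in POMC-C451Af/f, beside 5.10% of all tested genes in either direction and 2.70% higher. They were *Acaca*, the acetyl-CoA carboxylase that commits carbon to fatty acids (log2 fold change 0.085, SE 0.0377), and *Acsl6*, a brain acyl-CoA synthetase (0.13, SE 0.0416). With the oligodendrocyte list as a covariate they were 0.041 and 0.053, and *Porcn* was 0.11. With the longest transcript, the most abundant of the 13 genes that make or use palmitoyl-CoA were the acyl-CoA binding protein *Dbi* (611.8 TPM), the thioesterase *Acot7* (511.5 TPM) and the synthetase *Acsl3* (151.9 TPM). All had adjusted p-values of 0.878 or more in edgeR's quasi-likelihood test.

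The substrates were counted too. Of 20 genes for palmitoylated neuronal proteins, 1 was higher in POMC-C451Af/f and 1 lower at an unadjusted p under 0.05, beside 2.70% and 2.39% of all tested genes. *Nras*, a target of the *Zdhhc9* enzyme and of the *Abhd17* erasers, was at 30.7, 29.7, 32.3 and 33.2 CPM in POMC-C451Af/f replicates 1 to 4 and at 27.9, 28.7, 27.5 and 29.8 CPM in control replicates 1 to 4. As with *Zdhhc9*, POMC-C451Af/f replicates 3 and 4 were highest and replicate 2 lay within the range of the controls. The log2 fold change was 0.14 (SE 0.0444, edgeR quasi-likelihood test, p 0.00799 unadjusted and 0.878 adjusted), and 0.089 with the oligodendrocyte list as a covariate. *Gnas*, the stimulatory G protein subunit and with the longest transcript the most abundant of the list (1465.5 TPM), had a log2 fold change of -0.065 (SE 0.0251), and -0.062 with that covariate. *Snap25* (1448 TPM) and *Stmn3* (830.8 TPM) followed in level, with log2 fold changes of 0.10 and 0.031, and of -0.00097 and 0.039 with the oligodendrocyte covariate. With the length of all exons *Stmn3* (1084.6 TPM) and *Gap43* (937.3 TPM) were above *Gnas* (675.1 TPM).

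Of 15 steroid receptors and proteins that hold or couple estrogen receptors at membranes, 3 had an unadjusted p under 0.05, all lower in POMC-C451Af/f, beside 5.10% of all tested genes in either direction and 2.39% lower. Besides *Esr1* these were *Flot2*, a palmitoylated scaffold of lipid rafts and a target of the *Zdhhc5* enzyme (log2 fold change -0.082, SE 0.0333), and *Pelp1*, a coregulator that links ERα to Src (-0.076, SE 0.0302), both with an adjusted p of 0.878 by the quasi-likelihood test of edgeR. With the oligodendrocyte list as a covariate the log2 fold changes of *Esr1*, *Flot2* and *Pelp1* were -0.20, -0.062 and -0.072. *Flot1* (146.2 TPM), *Flot2* (110.5 TPM) and *Src* (68.6 TPM) were the most abundant of the 15 genes.

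Some members share sequence with other genes, so that their counts could include reads of the other gene or lose reads to it. Stretches of at least 100 bases with at least 95% identity to another gene covered 43.8% of the *Zdhhc6* transcript (a processed pseudogene, AC139296.1), 44.2% of that of *Ppt2* (*Gm20460*) and 21.5% of that of *Lypla1* (*Gm37988*). For *Golga7* and *Selenok* the largest such shares were 18.7% and 16.9%, with processed pseudogenes. Exons of *Gm20460* and *Gm37988* overlap those of *Ppt2* and *Lypla1* on the same strand, over 957 and 629 bases, so at these loci the annotations overlap. The named other genes were at or below 0.143 CPM in every pool, which does not say how reads common to both were assigned. Exons of *Zdhhc16* overlap those of *Mms19* on the opposite strand over 959 bases, and those of *Zdhhc3* overlap *Tgm4* over 830 bases. The libraries kept strand, but the strand setting of the counting is not given in the sources used here.

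These results rest on 4 pools of 2 animals per genotype, from females of a single age. RNA levels do not measure enzyme activity, protein or palmitate on any target. Cells that express *Pomc* were not separated from the rest of the tissue, so a difference confined to them was not measured. The intervals describe the fit with all 8 pools and no covariate, and the sign of the small differences of *Zdhhc7* and *Zdhhc21* was not the same in every alternative fit. Members were chosen for their known function after other results of these data had been seen. Lengths, positions and sequences are from GRCm38, while the counts were made on GRCm39.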

How the data were processed

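Stranded poly(A) libraries were sequenced by the authors. Reads were quantified by the authors with Salmon 1.10 against the GENCODE mouse transcriptome on GRCm39 and summed with tximport, and the deposited table gives an estimated count per gene and pool, not normalized. A further table holds the authors' own log2 fold changes and p-values from DESeq2 1.40 and was not used. Here counts were rounded, filtered with filterByExpr (minimum count 10, minimum total 15), scaled with TMM and tested by genotype alone in edgeR 4.0.16 (glmQLFit, legacy method; glmQLFTest) under R 4.3.3. P-values were adjusted by Benjamini-Hochberg over 18637 genes, and a call needed an adjusted p of at most 0.05 and an absolute log2 fold change over 0.5. Standard errors are the absolute log2 fold change over the square root of F. No length offset was applied. CPM use TMM-scaled totals, and TPM use the longest protein-coding transcript of GENCODE M21 unless another length is named. The genes named as most abundant in the marker and pathway lists depend on that choice. Permutation tests used log2(CPM + 0.5). Names, lengths and sequences come from GENCODE M21 (GRCm38) by Ensembl identifier without conversion, which covered 51424 identifiers and 99.6% of the counts. Shared sequence was searched with blastn 2.17.0 (at least 95% identity over at least 100 bases). The code was tested on simulated data. Replicate pools differed by more than counting noise (chi-square per degree of freedom at least 6.4). Named were all members, *Esr1*, and in each other pathway list the genes with an unadjusted p under 0.05 and the 3 highest per length. Members and lists were chosen with earlier results of these data known. The list of microglial markers is not reported here.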

Additional observations from a re-analysis of the deposited data

Results flagged for a closer look

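Among 74 groups of 4 pools (each tested member, *Esr1*, and the sums and the ratio of the roles, in each genotype), 5 had a pool far from the other 3, where chance gives about 4. *Zdhhc14* reached 32.7 CPM in control replicate 2, against 28.3 to 28.6 CPM for its 3 companions. Without that pool its log2 fold change was 0.075, and without POMC-C451Af/f replicate 3 it was -0.0051, against 0.024 with all pools. *Zdhhc24* reached 24.9 CPM in POMC-C451Af/f replicate 3, against 22.7 to 23.0 CPM. *Golga7* had 76.4 CPM in POMC-C451Af/f replicate 1, against 85.0 to 86.0 CPM. The summed level of the writers was 681.3 TPM in POMC-C451Af/f replicate 4 and between 649.2 and 654.4 TPM in the others, and the ratio of writers to erasers was 1.42 in the same pool and between 1.35 and 1.36 in the others.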

How the results depend on the processing

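The number of called members was 0 under each alternative run, which were DESeq2, other scalings, filters and variance models, unrounded counts, both covariates, the replicate block, FDR alone, a log2 fold change over 1, and pools left out. The number with an unadjusted p under 0.05 was 2, and 0 with either covariate and 1 without control replicate 1 and POMC-C451Af/f replicates 3 and 4 together, which are the lowest and the 2 highest pools of *Zdhhc9*, so its difference shrinks there by construction. Leaving out single pools it ranged from 1 (without POMC-C451Af/f replicate 3, POMC-C451Af/f replicate 4 or control replicate 3) to 4 (without POMC-C451Af/f replicate 2), while the share of all tested genes was 3.38%, 4.34% and 3.65% in the former fits and 9.38% in the latter. The median log2 fold change of the members ranged from -0.0048 to 0.028 over single pools left out. The log2 fold change of *Zdhhc7* changed sign to 0.033 with the midbrain covariate, 0.0083 with the oligodendrocyte covariate and 0.012 without those 3 pools, and ranged from -0.085 to -0.0018 over single pools left out. That of *Zdhhc21* changed sign to -0.0037 with total counts, -0.084 with the midbrain covariate, -0.088 with the oligodendrocyte covariate and -0.11 without the 3 pools, where its unadjusted p was 0.0479 and its adjusted p 0.999 in edgeR's quasi-likelihood test (adjusted p over its alternatives 0.820 to 1). Over single pools left out it ranged from -0.042 to 0.042, below 0 without POMC-C451Af/f replicate 3, POMC-C451Af/f replicate 4 or control replicate 1. For *Zdhhc21* these are the 2 highest POMC-C451Af/f pools and the lowest control pool. Leaving them out, singly or together, lowers its difference by construction. The cause of the other sign changes was not tested. *Zdhhc9* had an unadjusted p under 0.05 in 17 of 20 alternatives and *Zdhhc1* in 11, with no change of sign. The alternatives refit the same pools or a part of them, so these are not counts of separate tests. Of the 32 tested members, 20 changed sign in some alternative and 12 in none. The correlation of the deviations of pools with the same replicate number was 0.141 and 0.243 for replicates 1 and 4, above the highest with another number (-0.0427 and 0.0808), and -0.179 and -0.109 for replicates 2 and 3, below it (0.249 and 0.164). With the replicate block 0 members were called and 2 had an unadjusted p under 0.05, with log2 fold changes of -0.041 for *Zdhhc7* and 0.0037 for *Zdhhc21* and a median of 0.0088. The least counted tested member, *Zdhhc12*, had 130 to 220 counts per pool, and intervals for it are the widest after *Zdhhc22*. Over the genes that each fit tested, DESeq2 called 12 of 32164 without the filter where edgeR called 4 of 18637. EdgeR called 2 with the replicate block, 2 with at least 10 counts in every pool and 10 without the 3 pools.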
